A study of Mus musculus with 3 samples.

Results

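The TNF superfamily costimulators are 10 genes, given by name and found as 10 of the 50262 gene rows of the deposited table. They comprise 5 receptors, Tnfrsf4 (OX40), Tnfrsf9 (4-1BB), Tnfrsf14 (HVEM), Cd27 and Tnfrsf18 (GITR), and 5 ligands, Tnfsf4 (OX40 ligand), Tnfsf9 (4-1BB ligand), Cd70, Tnfsf8 (CD30 ligand) and Tnfsf12 (TWEAK). Their transcripts were followed in single cells of mouse glioblastoma by sort, tumor stage and marker-defined cell class. The tumors were driven by a conditional human wild-type EGFR transgene on a Cdkn2a-/- background with a conditional luciferase reporter, and were started in adult mice by a Cre lentivirus injected into the striatum. All groups share these alleles and the injection, the mice were of a mixed background (with Balb/cJ, SJL, FVBN/J, 129S4 and C57Bl/6J) 12 to 16 weeks old and of both sexes, and no tumor-free brain was analysed here. Viable CD45+ and CD45- cells were sorted from 1 early, 1 medium and 1 late tumor sample (the last is labelled large), and for the early stage 2 samples were pooled because cells were few. Each stage therefore has 1 tumor sample, so stage and tumor cannot be told apart and no difference between stages was tested. Across the 3 sequencing runs there were 24 libraries, 4 for each stage and sort, and these are technical repeats.

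After filtering, 17781 of 20811 cells were kept. The CD45+ sort held 5091 early, 3983 medium and 2111 late cells, and the CD45- sort held 2725, 1603 and 2268. The total UMI (unique molecular identifier) count ranged from 5381839 to 10808099 per stage and sort, and the median per cell from 1964 to 3078.5. Ptprc, which encodes CD45, was at 227 to 250 UMIs per 1000000 UMIs (CPM) in the CD45+ sort and at 3.59 to 15.9 in the CD45- sort. By this gene the sorts followed their labels, but each also held some cells of classes that prevailed in the other. Within a run, 740 barcodes were shared by libraries, affecting 1285 kept cells. Leaving these cells out ended the call of 1 member comparison, given below for Tnfsf12. Cells were clustered without the members and named from marker genes, and each class name below means "like" that type. Levels are CPM, the UMIs of a gene scaled to 1000000 UMIs of the group, with exact Poisson 95% intervals that cover counting error only. UMI counts carry no length correction, so levels are compared within a gene and not between genes. Fewer cells of a class and less RNA per cell cannot be told apart in the sums over a sort.

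Receptors of this family carry signals from trimeric ligands through TRAF adaptors to NF-kB, and several of them appear on T cells after antigen receptor stimulation. OX40, 4-1BB, CD27 and GITR promote survival and expansion of T cells, and their ligands are best known from activated antigen-presenting cells. HVEM is a switch, since it binds LIGHT (Tnfsf14) as a costimulator and BTLA or CD160 as inhibitory receptors. TWEAK acts on non-immune cells through Fn14 (Tnfrsf12a), which is known in injured tissue and in glioma cells.

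Of the 5 receptor genes, 4 lie on chromosome 4, with Tnfrsf4 and Tnfrsf18 side by side. In GRCm38, Tnfrsf4 spans chr4:156013843-156016612 on the plus strand and Tnfrsf18 spans chr4:156026164-156028895 on the same strand, while Tnfrsf14 (chr4:154921933-154928563, minus strand) and Tnfrsf9 (chr4:150914562-150946102, plus strand) lie further off. Tnfsf9 (chr17:57105325-57107757, plus strand) and Cd70 (chr17:57145997-57149777, minus strand) are neighbours, 38240 bases apart. Cd27 is at chr6:125232622-125237010 (minus), Tnfsf4 at chr1:161395409-161418410 (plus), Tnfsf8 at chr4:63831308-63861347 (minus) and Tnfsf12 at chr11:69686250-69695849 (minus). All 10 are annotated as protein-coding. Exons of Tnfsf12 overlap those of Tnfsfm13 on the same strand over 731 bases, so reads of these genes could be split between them and values for Tnfsf12 are uncertain. Exons of Tnfrsf18 and Tnfsf9 overlap opposite-strand transcripts over 414 and 192 bases, and those of Cd27 overlap Mir8113 over 129 bases.

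The promoters of Tnfrsf4, Tnfrsf18 and Tnfrsf9 are shown, 3 receptors with most of their UMIs in the same cell class. RefSeq windows (GRCm38.p6, 250 bases before to 50 after an annotated start) matched 6 members, with 7 windows. A pair of motifs was searched on both strands, the NF-kB consensus by its name and AP-1 as TGANTCA. Capitals mark the matches.
Tnfrsf9, chr4:150927749-150928048, plus strand: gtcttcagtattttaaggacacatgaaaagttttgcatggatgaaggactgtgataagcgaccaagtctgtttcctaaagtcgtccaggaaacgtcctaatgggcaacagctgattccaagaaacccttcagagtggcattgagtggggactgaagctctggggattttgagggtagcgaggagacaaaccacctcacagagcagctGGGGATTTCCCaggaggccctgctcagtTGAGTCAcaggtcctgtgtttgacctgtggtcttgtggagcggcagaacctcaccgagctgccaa
Tnfrsf4, chr4:156013445-156013744, plus strand: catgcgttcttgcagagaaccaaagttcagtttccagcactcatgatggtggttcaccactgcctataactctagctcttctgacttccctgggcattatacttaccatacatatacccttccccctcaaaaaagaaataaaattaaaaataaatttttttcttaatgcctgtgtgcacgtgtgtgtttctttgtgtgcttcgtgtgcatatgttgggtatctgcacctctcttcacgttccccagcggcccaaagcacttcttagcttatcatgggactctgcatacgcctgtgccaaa
Tnfrsf18, chr4:156026072-156026371, plus strand: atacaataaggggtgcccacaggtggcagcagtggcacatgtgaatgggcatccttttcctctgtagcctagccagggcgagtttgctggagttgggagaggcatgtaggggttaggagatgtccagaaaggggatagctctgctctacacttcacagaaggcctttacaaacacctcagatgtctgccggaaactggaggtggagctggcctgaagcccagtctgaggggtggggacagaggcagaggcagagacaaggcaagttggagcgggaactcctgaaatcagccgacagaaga
The Tnfrsf9 window held 2 overlapping NF-kB consensus matches, at -43 and -42 from the start, and an AP-1 match at -15. Of all 32851 RefSeq windows, 1480 (4.51%) held the NF-kB consensus and 2565 (7.81%) held the AP-1 motif. The letters of neither motif were in the other 6 windows, which includes those of Tnfrsf4 and Tnfrsf18 and a further start of Tnfrsf9. The matches are descriptions of letters and were not measured as sites.

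The first comparison asked which members were carried by immune cells. Between the sorts, 5 of the 7 members tested were higher in CD45+ than in CD45- cells (edgeR quasi-likelihood test on sums per tumor and sort with the tumor as a block, Benjamini-Hochberg adjusted), against a background of 46.1% of 18433 genes called in either direction. Among the receptors, Tnfrsf18 was at 8.14, 25.4 and 17.5 CPM in the CD45+ sort of the early, medium and late tumor and at 0.123, 0.305 and 0.567 in CD45- cells. Tnfrsf4 was at 4.72, 16.2 and 10.8 in CD45+ cells and at 0.247, 0.457 and 0.378 in CD45- cells. For both genes every CD45+ value lay above every CD45- value, with edgeR log2 differences of 5.90 ± 0.42 (SE, adjusted p = 0.000126) for Tnfrsf18 and 5.13 ± 0.41 (adjusted p = 0.000156) for Tnfrsf4. Cd27 was at 8.97, 25.4 and 2.97 in CD45+ cells and at 0.494, 0.915 and 0.472 in CD45- cells, again without overlap (4.36 ± 0.49, edgeR adjusted p = 0.000433).

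The ligands Tnfsf8 and Tnfsf12 were also higher in the CD45+ sort. Tnfsf8 was at 3.05, 10.1 and 5.02 CPM in CD45+ cells and at 0, 0.152 and 0.283 in CD45- cells (log2 5.46 ± 0.61, edgeR adjusted p = 0.00044). Tnfsf12 was at 36.1, 24.8 and 37.5 against 10.7, 16.2 and 17.4 (1.52 ± 0.25, edgeR adjusted p = 0.00225). The groups did not overlap for either gene. No share of all genes without overlap is given beside these statements. Tnfrsf14 was at 22.3, 25.0 and 32.5 in CD45+ cells and at 15.9, 25.6 and 37.8 in CD45- cells, and its ranges overlapped (0.44 ± 0.21, edgeR adjusted p = 0.134). Tnfsf9 was at 22.7, 11.3 and 9.29 against 5.06, 12.7 and 11.5 (0.90 ± 0.50, edgeR adjusted p = 0.185). Neither gene passed the test. Cells in the other sort bore on these values. In the early CD45- sort, 246 microglia (9.03% of cells) held 23 of 87 Tnfsf12, 9 of 41 Tnfsf9 and 18 of 129 Tnfrsf14 UMIs. In the medium CD45+ sort, 178 cells classed as glioma or oligodendrocyte progenitor held 20 of 110 Tnfsf9 UMIs. Scaling by totals only, which moved the median of all genes from -0.04 to -0.40, gave 0.07 for Tnfrsf14 and 0.53 for Tnfsf9, and changed the split of genes higher and lower in CD45+ cells from 3759 and 4744 to 2589 and 6559.

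The other 3 members were too sparse for the test and are given as UMIs. Tnfrsf9 had 9, 197 and 9 UMIs in the CD45+ sort by stage and 3, 2 and 0 in CD45- cells. Cd70 had 0, 27 and 0 UMIs against 5, 9 and 3, and Tnfsf4 had 1, 12 and 2 against 0, 0 and 0. All 3 had most of their CD45+ UMIs in the medium tumor.

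**Figure D1:**
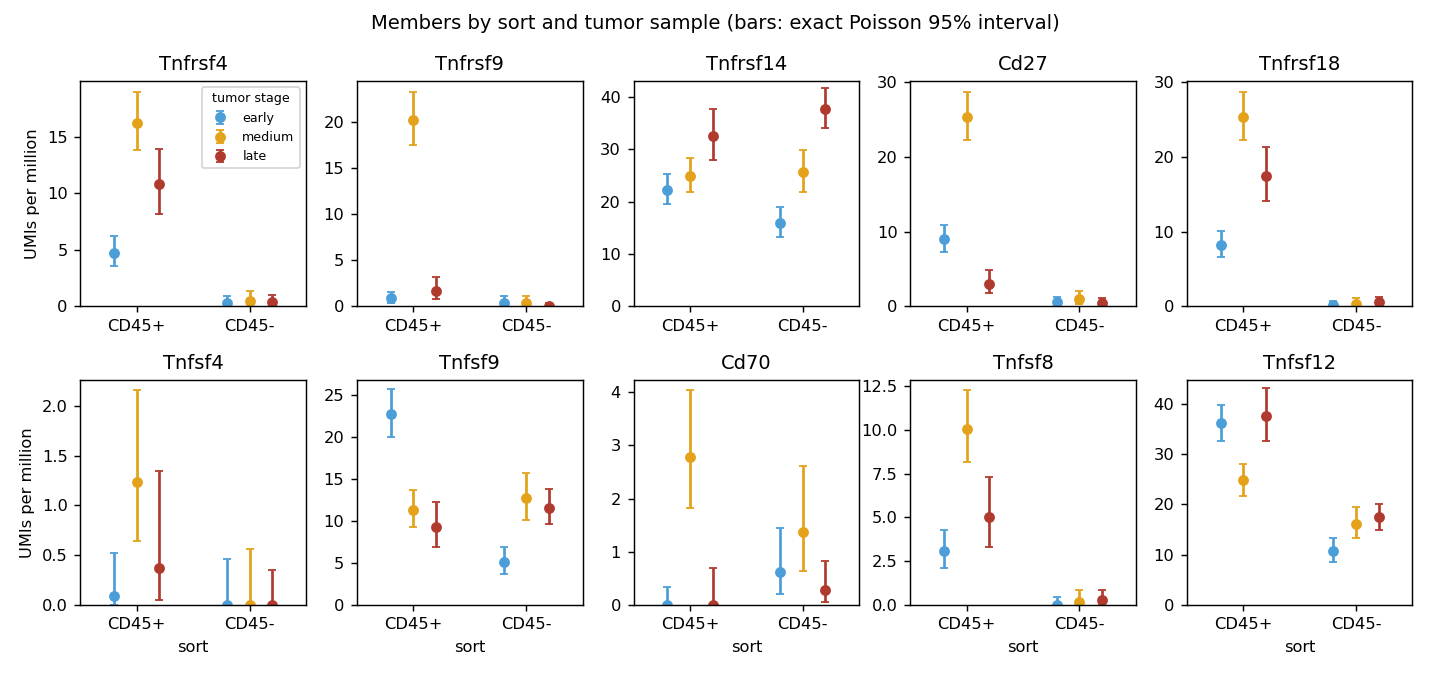
CPM (linear axes) of each member in the CD45+ and CD45- sorts, with a point for each tumor stage and exact Poisson 95% intervals. Of the 7 members tested, Tnfrsf4, Tnfrsf18, Cd27, Tnfsf8 and Tnfsf12 were called higher in CD45+ cells, whereas Tnfrsf14 and Tnfsf9 were not called. In this contrast 46.1% of all genes were called. The sparse members Tnfrsf9, Tnfsf4 and Cd70 rest on few UMIs and were not tested.

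Among the named classes, the receptors other than Tnfrsf14 had their highest mean in T cells. This class held 313 early, 398 medium and 75 late CD45+ cells in 1 cluster led by Xcl1, Trbc2, Il2rb, Ifng and Trbc1. Killer cell genes were read in it as well, since 8, 7 and 7 of the 8 NK cell markers had a UMI in the early, medium and late tumor, at a summed 894, 422 and 1077 CPM, beside 2631, 2360 and 2499 for the 6 CD3 and T cell receptor genes. No cluster was named NK. By a cut set after the values were seen, 9, 11 and 1 cells had 2 or more NK markers and no CD3 or T cell receptor UMI. Without them Tnfrsf9 in the class was at 9.25, 178 and 45.1 CPM, Tnfrsf4 at 61.7, 156 and 167, Tnfrsf18 at 105, 194 and 135, and Cd27 at 120, 201 and 77.3.

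Tnfrsf4, the OX40 receptor of activated and regulatory T cells, was at 60.3 (43.1 to 82.1), 152 (128 to 180) and 166 (108 to 243) CPM in early, medium and late T cells. Microglia, the resident macrophages of the brain, had 0.734, 0.687 and 0. Of the 40 early UMIs, 27 came from 1 of 4 libraries, which held 127 of the 313 cells. Tnfrsf18 was at 104, 194 and 134 in T cells and at 0.245, 1.37 and 0 in microglia. Cd27, which marks naive and memory T cells and supports their survival, was at 118, 205 and 76.5 in T cells and at 1.59, 0.687 and 0 in microglia. T cells lay above microglia in every tumor for these 3 genes. Tnfrsf9, a receptor of recently activated T cells, was at 12.1 (5.21 to 23.8), 177 (150 to 207) and 51.0 (22 to 101), against 0.122, 0.687 and 0 in microglia.

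In the contrast of T cells with microglia, 5 of 7 members tested passed, 4 of them higher in T cells, beside 30.8% of 10190 genes called in either direction. The edgeR log2 differences were 8.06 ± 0.61 for Tnfrsf18 (adjusted p = 2.55e-15), 7.15 ± 0.63 for Tnfrsf4 (adjusted p = 1.01e-12), 6.97 ± 0.71 for Tnfrsf9 (adjusted p = 5.84e-11) and 6.61 ± 0.65 for Cd27 (adjusted p = 1.92e-10). Tnfsf12 was lower in T cells (-1.82 ± 0.48, edgeR adjusted p = 0.00229), with 12.1, 8.95 and 12.8 CPM against 36.6, 41.2 and 35.3 in microglia. Tnfrsf14 had a difference of 0.00 and Tnfsf9 of 0.13 (edgeR adjusted p = 0.883), though Tnfsf9 reached 1.65 (adjusted p = 0.0299) when each cell was classed without clusters.

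The same 4 receptors were also higher in T cells than in B cells, beside a background of 3.73% of genes called. The B cell class, a cluster led by Igha, Igkc and Jchain, held 14, 194 and 13 cells. Its early and late cells had 0 UMIs of each receptor, so the folds rest on the medium tumor. There B cells had 8 UMIs of Tnfrsf4 (12.6 CPM) and 13 each of Tnfrsf9, Cd27 and Tnfrsf18 (20.4 CPM). The edgeR log2 differences were 3.27 ± 0.74 (adjusted p = 0.00399), 2.68 ± 0.72 (adjusted p = 0.0199), 3.09 ± 0.76 (adjusted p = 0.0114) and 2.77 ± 0.61 (adjusted p = 0.00277). DESeq2 did not call Cd27 (adjusted p = 0.382) or Tnfrsf9 (adjusted p = 0.752). Without the medium tumor Tnfrsf4, Cd27 and Tnfrsf18 did not pass (edgeR adjusted p = 0.213, 0.211 and 0.133), and without the late tumor Tnfrsf9 did not (edgeR adjusted p = 0.0551). Not every member comparison had a value without the medium tumor, and none is given for Tnfrsf9 here. Tnfsf12 (1.22), Tnfsf9 (0.24) and Tnfrsf14 (0.17) did not pass.

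**Figure D2:**
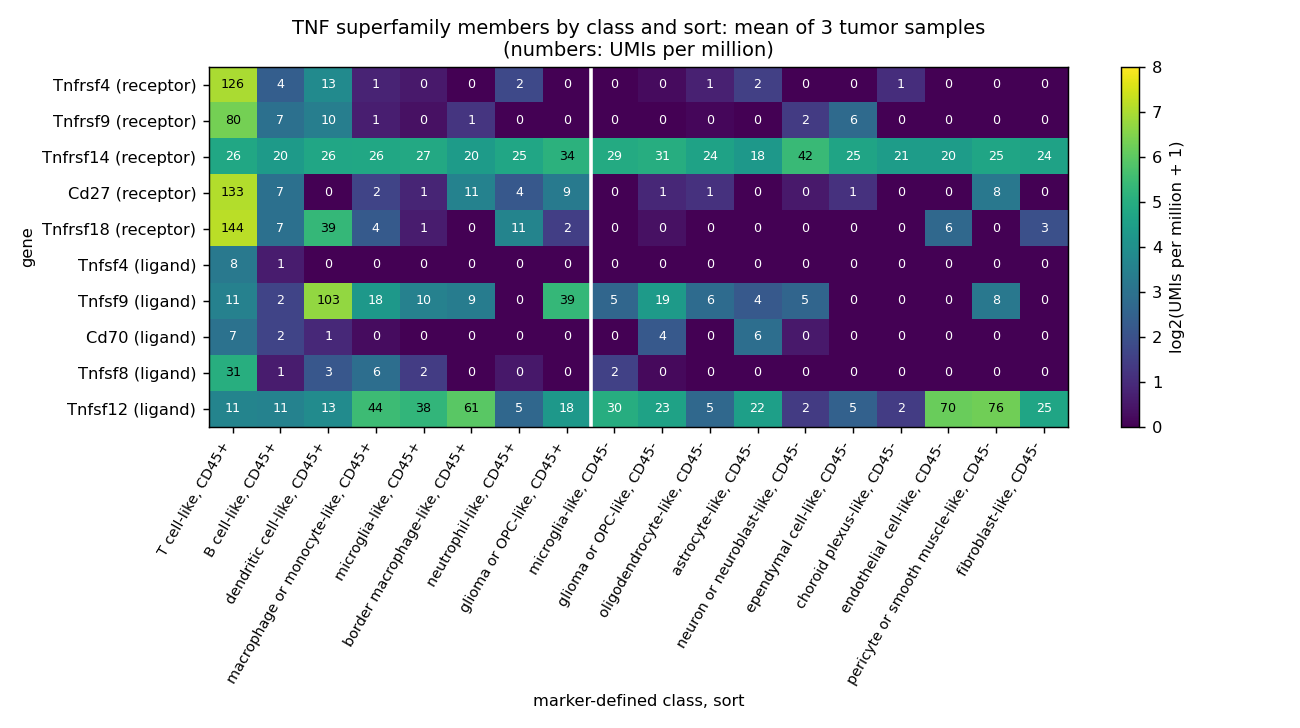
CPM of the members (colour on a log2 scale with 1 added, numbers as means of the 3 tumors) across marker-defined classes of the CD45+ and CD45- sorts. Among named classes, T cells hold the highest mean of Tnfrsf4 (126), Cd27 (133), Tnfrsf18 (144) and Tnfrsf9 (80.0), dendritic cells that of Tnfsf9 (103), and pericytes that of Tnfsf12 (75.6).

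Levels were ordered over the 18 combinations of sort and class with 50 or more cells in all and 10 or more in each tumor, which leaves out the 70 CD45+ oligodendrocytes, the 60 plasmacytoid dendritic cells and, as cells of no named class, the 513 unnamed CD45+ cells. T cells came first for Tnfrsf4 (126 ± 57.4 CPM, SD, n = 3 tumors), Cd27 (133 ± 65.5), Tnfrsf18 (144) and Tnfsf8 (31), and did not overlap the next named class. The unnamed CD45+ cells ranged over the tumors from 0 to 71.5 for Tnfrsf4, from 12.1 to 138 for Tnfrsf18 and from 6.04 to 41.5 for Tnfsf8, which overlapped T cells (lowest values 60.3, 104 and 12.1), and from 0 to 15.8 for Cd27, which did not. T cells were also first for Tnfrsf9 (80.0 ± 86.1), but the range of 12.1 to 177 overlapped that of dendritic cells (0 to 28.9). Tnfrsf14 had class means of 18.1 to 41.6, and every pair of neighbours in its order overlapped. No class contrast run here passed the test for this gene. No class that should lack it was fixed, so reads from free RNA in any 1 class were not tested.

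Within T cells, Tnfrsf9 ranged from 12.1 to 177 CPM between the tumors, and stage was not tested. The share of T cells with a Tnfrsf9 UMI was 2.24, 21.1 and 6.67% in early, medium and late cells, and after thinning each cell to 1000 UMIs it was 1.37, 11.4 and 2.86%. The median depth was 1829, 1916 and 1675 UMIs per cell. In the 4 medium libraries Tnfrsf9 had 27, 68, 23 and 40 UMIs in 67, 172, 69 and 90 cells. In the 4 early libraries it had 2, 3, 2 and 1 UMIs in 7, 113, 66 and 127 cells. All 4 medium libraries thus held more Tnfrsf9 UMIs than any early library. For Tnfrsf4 the thinned shares were 2.73, 11.9 and 11.4%, for Tnfrsf18 8.19, 16.7 and 14.3%, and for Cd27 8.87, 14.4 and 11.4%. In microglia, which should lack them, at most 0.227% of cells held a UMI of any of these receptors.

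**Figure D3:**
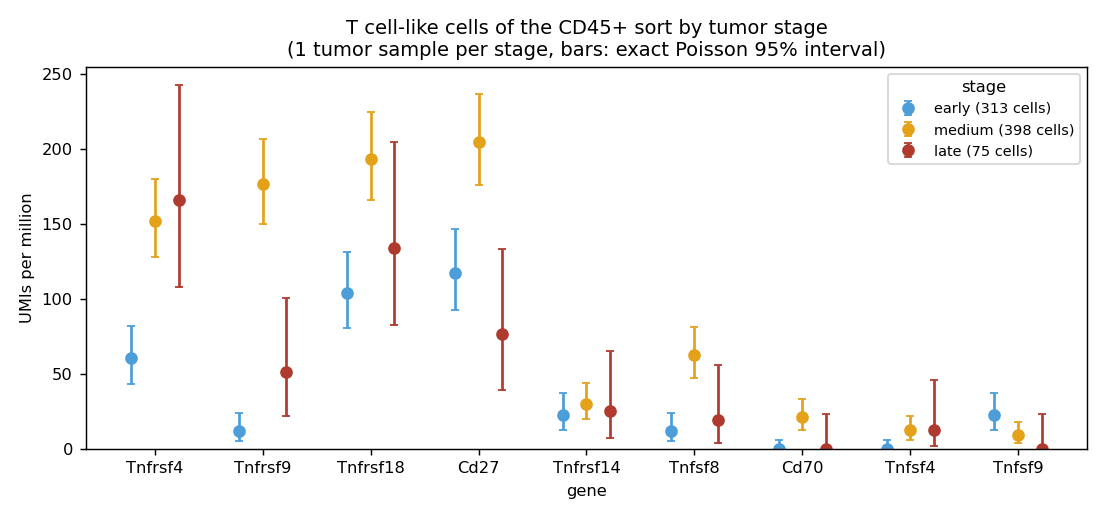
CPM of the members in CD45+ T cells at each stage, with exact Poisson 95% intervals, 1 tumor sample per stage. Tnfrsf9 is at 12.1, 177 and 51.0 and Tnfrsf4 at 60.3, 152 and 166 in early, medium and late T cells.

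T cells were next split by a Cd8a UMI, the coreceptor of cytotoxic T cells, which was read in 93, 89 and 17 cells and not in 220, 309 and 58. The killer cell gene Ncr1 had 42, 30 and 5 UMIs in cells without Cd8a and 0 in cells with it. A CD8 T cell in which Cd8a was not read would also fall among the cells without, so the split is not one of pure T cell subsets. Tnfrsf4 was at 4.44, 73.5 and 0 CPM in cells with Cd8a (1, 15 and 0 UMIs) and at 89.0, 175 and 208 in cells without. The edgeR log2 difference of -2.25 ± 0.56 did not pass over all genes tested (edgeR adjusted p = 0.158). Over every gene with a count it passed (adjusted p = 0.0108), as it did without the late tumor (-1.95, adjusted p = 0.0164). In this split 0.137% of 3655 genes were called. Tnfrsf18 was at 75.4, 73.5 and 31.2 in cells with Cd8a and 119, 229 and 160 in cells without (-1.29 ± 0.41, edgeR adjusted p = 0.611). Tnfrsf9 (-0.54) and Cd27 (0.17) did not pass either, and in the medium tumor Tnfrsf9 was at 176 in cells with Cd8a and 177 in cells without.

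The receptors were also read in the same T cells, described without a test because the depth of the cells differed. Of 103 cells with a Tnfrsf4 UMI, 38.8% held Tnfrsf18, 31.1% Tnfrsf9, 35.9% Cd4 and 11.7% Cd8a. Of the 683 others, 17% held Tnfrsf18, 9.37% Tnfrsf9, 14.6% Cd4 and 27.4% Cd8a. The median depth was 2177 UMIs in the first and 1818 in the second. Of these 4 genes only Cd8a had the smaller share in cells with Tnfrsf4. Of 96 cells with a Tnfrsf9 UMI, 24% held Cd8a, near the 25.5% of the rest.

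Outside the cluster named T cell, a small group of late cells carried much of 3 members. Of the late CD45+ UMIs, a cluster of 48 late cells (2.27% of the sort) held 56 of 94 for Tnfrsf18 (59.6%), 30 of 58 for Tnfrsf4 (51.7%) and 18 of 27 for Tnfsf8 (66.7%). T cells held 21 and 26 of the late UMIs for Tnfrsf18 and Tnfrsf4. The late sums of the sort for these genes thus came in larger part from this cluster, whereas 78.4% of the early and 70.0% of the medium Tnfrsf18 UMIs were in T cells. The cluster passed 3 mast cell markers, the minimum for a name, with T cell as the second class, but its leading genes (Elane, Prtn3 and Mpo) are not mast cell genes. It was therefore left unnamed, a choice made after its genes were seen.

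In its late cells Tnfrsf18 was at 385 (291 to 500), Tnfrsf4 at 206 (139 to 295) and Tnfsf8 at 124 (73.4 to 196) CPM, beside 134, 166 and 19.1 in late T cells. At a finer resolution the cluster fell into 76 cells led by Elane, Prtn3 and Mpo, whose finer cluster passed 5 neutrophil markers, and 59 cells led by Il13, Areg and Ccl1, whose finer cluster passed 7 mast cell markers with T cell second. The first had Tnfrsf18 at 13.9 and neither Tnfrsf4 nor Tnfsf8, and the second had Tnfrsf18 at 368, Tnfrsf4 at 175 and Tnfsf8 at 152. Of the 59 cells, Il13 was read in 46, Gata3 in 44, Il1rl1 in 34, Trac in 26, Cd3d in 14, Cd3e in 10 and the mast cell genes Cpa3 in 12 and Fcer1a in 10. Its 48 late cells came from 3 libraries with 3, 19 and 26 cells, which held 5, 19 and 32 Tnfrsf18 UMIs.

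Among myeloid cells, dendritic cells were higher than macrophages or monocytes for 4 members. The class held 64, 159 and 54 CD45+ cells. Tnfsf9, whose product engages 4-1BB on T cells, was at 219 (158 to 296), 55.1 and 34.8 CPM, against 33.5, 10.1 and 10.8 in macrophages or monocytes. Tnfrsf18 was at 47.0, 49.9 and 20.9 against 3.53, 3.75 and 4.23. Dendritic cells did not overlap macrophages for either gene, and no share of all genes without overlap is given beside this.

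The edgeR log2 differences of dendritic cells over macrophages or monocytes were 2.30 ± 0.47 for Tnfsf9 (adjusted p = 0.000504), 3.32 ± 0.59 for Tnfrsf18 (adjusted p = 6.48e-05), 3.70 ± 0.90 for Tnfrsf4 (adjusted p = 0.00455) and 3.83 ± 0.90 for Tnfrsf9 (adjusted p = 0.00309). The background was 8.02% of genes called. Tnfrsf9 and Tnfrsf4 rested on 11 UMIs each in dendritic cells, the former from the medium tumor alone. Tnfsf12 was lower in dendritic cells (-1.74 ± 0.56, edgeR adjusted p = 0.0413). Without the early tumor Tnfsf9 did not pass (adjusted p = 0.110) nor did Tnfrsf4 (0.0505), and without the medium tumor Tnfsf9 (0.0548), Tnfrsf18 (0.0558) and Tnfrsf4 (0.125) did not. The Tnfsf12 call was lost without the early (0.097) or late tumor (0.213) and when cells with shared barcodes were left out (0.0526), and DESeq2 did not call Tnfrsf9 (0.573). With each cell classed without clusters, Tnfsf9 (1.40, adjusted p = 0.353), Tnfrsf18 (0.0822) and Tnfsf12 (0.493) did not pass. Cd27 had 0 UMIs in dendritic cells. Within the class, 239 cells led by Xcr1 had Tnfsf9 at 101 and Tnfrsf18 at 37.8, and 38 cells led by Ccr7 had Tnfrsf9 at 110 from 9 UMIs, Tnfrsf18 at 85.5 from 7 and Tnfsf9 at 48.8 from 4.

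Macrophages or monocytes differed from microglia in 1 member, beside 14.9% of genes called. Of this class, the clusters led by Cxcl9 (1247 cells) and Rnase2a (982 cells) passed 4 of its markers each. None of their leading genes was such a marker, so the class name is uncertain there. Tnfrsf18 was higher in macrophages (3.06 ± 0.75, edgeR adjusted p = 0.00268), from 2, 13 and 9 UMIs against 2, 2 and 0, and it did not pass without the early (0.0682) or late tumor (0.0508) or with each cell classed without clusters (2.03, adjusted p = 0.109). Tnfsf9 (1.02 ± 0.45, adjusted p = 0.128), Cd27 (1.09), Tnfrsf4 (0.52), Tnfsf12 (0.32), Tnfrsf9 (0.31) and Tnfrsf14 (0.11) did not pass. This contrast and that of T cells share the microglia sums. With an H2-Oa-led cluster of microglia left out, Tnfrsf18 differed by 4.15 here (edgeR adjusted p = 0.000336) and by 9.14 between T cells and microglia (edgeR adjusted p = 2e-15), and every other member stayed on its side of the threshold in both contrasts.

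Microglial Tnfsf9 was followed by stage. CD45+ microglia numbered 3971, 788 and 937 cells and held 148, 16 and 4 Tnfsf9 UMIs. This gave 18.1 (15.3 to 21.3), 11 (6.29 to 17.9) and 2.14 (0.583 to 5.48) CPM, and 2.14, 1.65 and 0.427% of cells with a UMI. The late interval lay below both others, while the early and medium intervals overlapped. With 0.5 UMI added, the log2 ratio of late over early was -2.92 (-4.98 to -1.69) and that of medium over early -0.68 (-1.56 to 0.03). Of 16057 genes with 10 or more UMIs in microglia, 0.212% were 4-fold or more below early in late cells when 1 CPM was added. Tnfsf9 (-2.61) was 1 of these 34 genes. With 1 CPM added, genes at low early levels could not reach 4-fold, and they stay among the 16057. The share is therefore smaller than among genes able to pass, and does not show how unusual Tnfsf9 was.

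Libraries and clusters bore on these levels. By library Tnfsf9 was at 31.8, 17.2, 23.3 and 13.6 in early cells, at 22.4, 6.65, 13.2 and 9.17 in medium cells, and at 0, 0, 2.49 and 1.93 in late cells, of which the first 2 held 1 and 12 cells. Early and medium libraries overlapped. The first 2 late libraries were too small to show these levels, and the other 2, with 2 UMIs each, were below every early and medium library, though their intervals (0.302 to 9.01 and 0.234 to 6.97) overlapped some of those. Most UMIs came from 1 cluster, led by Gpr84 and Dusp2, with 105, 11 and 4 UMIs in 1218, 149 and 232 cells, or 37.3, 37.7 and 7.15 CPM. A cluster led by P2ry12 and Ccr6 had 1.07, 0 and 0. The Gpr84-led cluster made up 30.7, 18.9 and 24.8% of microglia, and a cluster led by H2-Oa and Ciita made up 7.81, 50.6 and 0.534%, so the medium value rested on a different mixture of clusters. The Gpr84-led cluster passed 8 microglia markers, but none of its 10 leading genes was one. The H2-Oa-led cluster also passed 8, but none of its 10 leading genes was one and 1 was a marker of another class. Without it, a choice made after the data were seen, Tnfsf9 was at 18.1 (15.2 to 21.4), 16.9 (8.75 to 29.6) and 2.15 (0.587 to 5.51) CPM from 136, 12 and 4 UMIs, and the log2 ratio to early was -0.04 in medium and -2.91 in late cells.

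Other genes gave context for the late value. Tnfsf12 in microglia was at 36.6, 41.2 and 35.3 and Tnfrsf14 at 21.7, 24.7 and 35.3. Tnf was at 1122, 1317 and 622. The summed immediate-early genes, which respond to dissociation as well as to signals, were at 20440, 19002 and 27460, and 3 of 14 were lower in late than early cells (median log2 0.32). Of 14 TRAF and NF-kB genes 9 were lower (median -0.27), beside 6855 of all 16057 genes (median 0.08). Their sum went the other way, at 3610, 3003 and 4117, with Nfkbia at 2929, 2363 and 3531. Their part in the Tnfsf9 value was not tested.

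**Figure D4:**
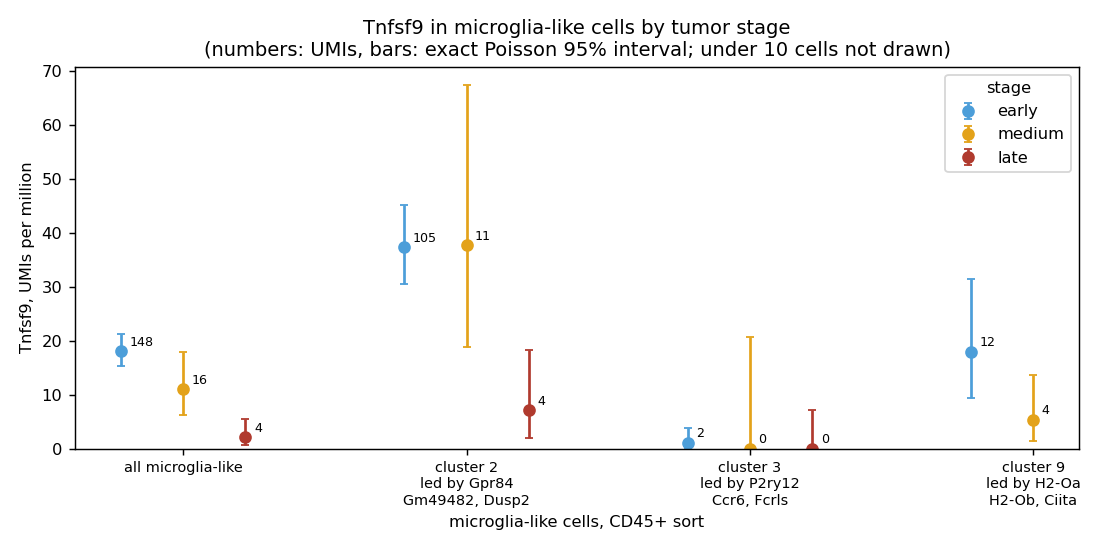
Tnfsf9 CPM in CD45+ microglia by stage, for all cells and for 3 clusters (numbers are UMIs, groups under 10 cells are not drawn), with exact Poisson 95% intervals. All microglia are at 18.1, 11 and 2.14, and the Gpr84-led cluster is at 37.3, 37.7 and 7.15.

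Tnfsf9 was also read in the CD45- class that joins glioma cells and oligodendrocyte progenitors, called glioma/progenitor below. The human EGFR transgene was at 117, 1729 and 1877 CPM in this class by stage. All 56 early transgene UMIs came from 4 cells, and a Pdgfra-led cluster with 0 early and 0 medium transgene UMIs (656 CPM late) made up 71.9, 19.1 and 5.69% of the class, so its makeup differed between the tumors. The class (178, 440 and 1142 cells) had 9, 62 and 107 UMIs, or 18.7, 24.1 and 15.7 CPM. All 9 early UMIs lay in the Pdgfra-led cluster, and without that cluster, left out after the data were seen, the class was at 0, 21.8 and 15.6 CPM. The early 0, from 50 cells of which 40 were of a Bcas1os2-led cluster with 0 early transgene UMIs, allows up to 21.7 CPM at 3 counts. The other clusters differed by stage as well, since an AI506816-led cluster held 246 of the 356 medium cells and 0 late cells. In the late tumor Tnfsf9 was at 31.1 in the Bcas1os2-led and 5.87 in an Fbln2-led cluster, so the stages compare different clusters. The part of this makeup in the values by stage was not tested. The class held 74.7% of the medium and 87.7% of the late Tnfsf9 UMIs of the CD45- sort with 27.4 and 50.4% of its cells. Microglia held 60.4% of the early CD45+ UMIs with 78% of the cells. No Tnfsf9 UMI was read in the 345 CD45- endothelial cells or in the 324 neutrophils. In the class order dendritic cells came first (103 ± 101), but every neighbouring pair with Tnfsf9 UMIs overlapped.

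The ligands Cd70 and Tnfsf4, whose receptors are CD27 and OX40, had few UMIs. Cd70 had 44 UMIs in 29 cells and Tnfsf4 had 15 in 10 cells. Of these, 19 Cd70 UMIs and 11 of Tnfsf4 came from medium T cells, and 12 Cd70 UMIs came from 297 cells of a cluster led by Pdgfra. These counts were too few for a comparison. Tnfsf8 was at 12.1, 62.7 and 19.1 CPM in T cells from 8, 56 and 3 UMIs, and 17 of the 33 early CD45+ UMIs lay in microglia.

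Tnfsf12, by contrast, was spread over myeloid and vascular classes. Pericytes were at 121, 49.8 and 55.4 CPM, endothelial cells at 52.1, 98.8 and 60.2, and border or perivascular macrophages at 79.3, 48.6 and 55.8. Macrophages or monocytes were at 51.1, 30.8 and 50.2. The ranges of pericytes, endothelial cells and border macrophages overlapped. Endothelial values were above those of macrophages or monocytes in every tumor, but the early values, from 12 and 29 UMIs, were nearly equal. The late endothelial value rested on 8 UMIs, and this order across the sorts was not tested. In glioma/progenitor cells Tnfsf12 was at 33.3, 14.4 and 22.1 and in oligodendrocytes at 1.64, 6.80 and 7.98.

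Endothelial cells were higher than glioma/progenitor cells for Tnfsf12 (log2 1.78 ± 0.60, edgeR adjusted p = 0.0235), and oligodendrocytes were lower (-1.66 ± 0.58, edgeR adjusted p = 0.0242). The background was 23.0% and 30.7% of genes called. Both contrasts share the glioma/progenitor sums, in which 15 of the 16 early Tnfsf12 UMIs came from the Pdgfra-led cluster. Without that cluster the endothelial difference was 2.14 (edgeR adjusted p = 0.0101) and the oligodendrocyte call was lost (-1.26, edgeR adjusted p = 0.111). The endothelial call was lost when any of the tumors was left out (adjusted p = 0.0549, 0.399 and 0.0702 without early, medium and late) and with every gene tested (0.0551). The oligodendrocyte call was lost without the early (0.314) or medium tumor (0.0677) and with each cell classed without clusters (0.0672). Tnfrsf14 did not pass in either contrast (-0.42 and -0.01).

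Fn14 (Tnfrsf12a), the receptor of TWEAK, was at 12.5, 52.8 and 61.6 in early, medium and late glioma/progenitor cells from 6, 136 and 421 UMIs. Without the Pdgfra-led cluster it was at 36.1, 57.2 and 63.4, where the 5 early UMIs came from 1 cell. The AI506816-led cluster held 110 of the 136 medium UMIs, and the Fbln2-led cluster held 382 of the 421 late UMIs (97.4 CPM, beside 7.92 in the Bcas1os2-led cluster), so these values too are of different clusters. Fibroblasts were at 12.2, 60.8 and 111 and microglia at 33.3, 22.7 and 15.0. Oligodendrocytes were lower than glioma/progenitor cells (-2.38 ± 0.57, edgeR adjusted p = 0.000768), and endothelial cells (0.35, adjusted p = 0.740) and the sorts (0.34, adjusted p = 0.598) did not pass.

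**Figure D5:**
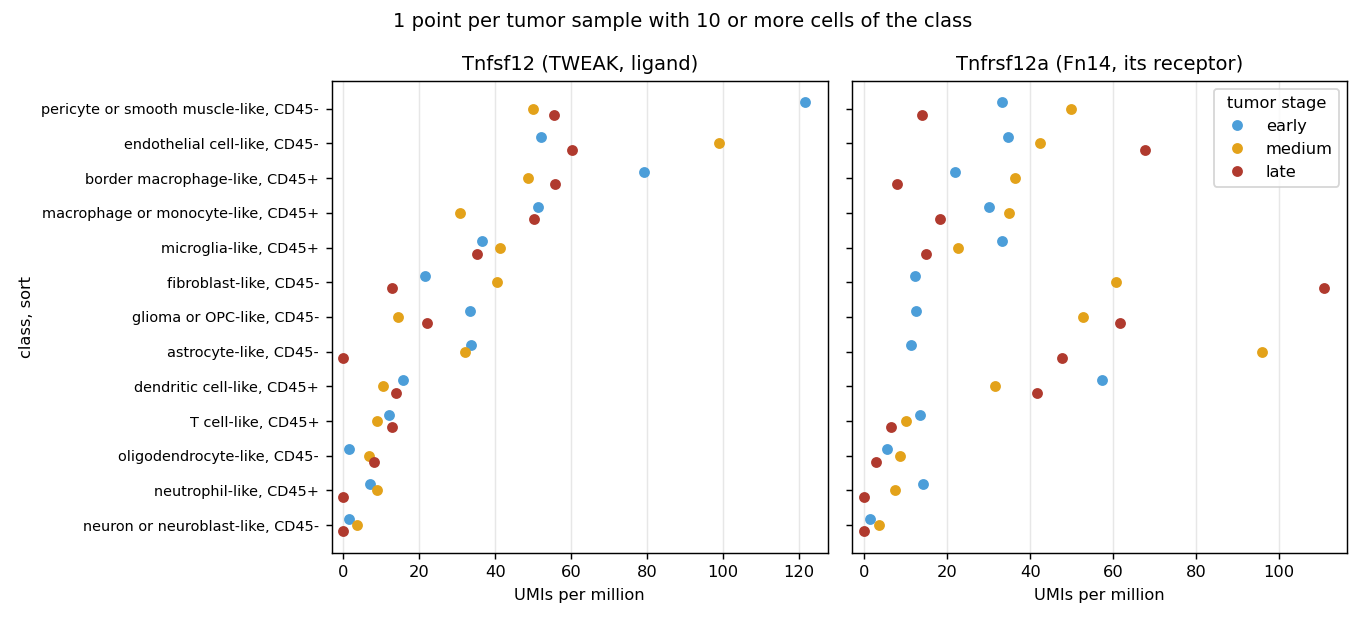
CPM of Tnfsf12 (TWEAK) and Tnfrsf12a (Fn14) by class, with a point for each tumor stage with 10 or more cells and no interval drawn. Tnfsf12 in pericytes is at 121, 49.8 and 55.4, and Tnfrsf12a in glioma/progenitor cells at 12.5, 52.8 and 61.6.

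Partners of HVEM were read in dendritic cells, B cells and T cells. Btla, an inhibitory receptor, was at 110, 142 and 62.6 CPM in dendritic cells, at 337, 33 and 129 in B cells (11, 21 and 6 UMIs) and at 9.04, 17.9 and 19.1 in T cells. It was higher in dendritic cells than in macrophages (7.42 ± 0.72, from 84 UMIs against 3, edgeR adjusted p = 1.01e-10) and lower in T than in B cells (-3.05, edgeR adjusted p = 0.00159). It was also higher in T cells than in microglia (4.69, edgeR adjusted p = 4.39e-06) and in the CD45+ sort (3.53, edgeR adjusted p = 0.0143). Cd160 was at 27.1, 41.4 and 25.5 in T cells and higher there than in microglia (5.98, edgeR adjusted p = 3.07e-07) and than in B cells (59 UMIs against 0, at least 8.21-fold, edgeR adjusted p = 0.0225). Tnfsf14, the ligand LIGHT, had 57 UMIs and was higher in the CD45+ sort (5.56 ± 0.87, from 56 UMIs against 1, edgeR adjusted p = 0.00184). The partners of GITR and CD30 ligand were scarce, with 1 UMI of Tnfsf18 and 20 of Tnfrsf8.

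The rest of the family was counted for comparison, and in each contrast the 5 called genes with the largest difference, or all where fewer were called, are given as edgeR log2 differences. Of 28 other TNF superfamily genes tested between sorts, 16 were higher and 3 lower in CD45+ cells, beside the 46.1% of all genes called (median log2 1.39, beside -0.04 over all genes), led by Fasl (138 UMIs against 0, at least 44.8-fold higher when 3 counts over the group stand for 0), Ltb (8.13, from 890 UMIs against 3), Tnfsf14 (5.56), Tnfrsf1b (5.08) and Tnfrsf13b (4.49). In T cells against microglia 4 of 19 family genes were higher and 6 lower, beside 30.8% of all genes called, with Fasl at 8.39 (127 UMIs against 2), Ltb at 6.37, Tnf at -3.27, Fas at 2.98 and Tnfrsf11a at -2.82. Fasl encodes the death ligand of cytotoxic cells. Against B cells 4 of 19 were higher in T cells and 2 lower, beside 3.73% of all genes called, with Fasl at 4.79 (127 UMIs against 1), Tnfsf10 at 3.31 (123 against 3), Cd40 at -3.15, Tnfrsf13b at -3.13 and Tnfrsf1a at 1.79. The 2 lower genes, Cd40 and Tnfrsf13b, encode receptors known from B cells.

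In dendritic cells against macrophages or monocytes 2 of 19 family genes were higher and 3 lower, beside 8.02% of all genes called, with Tnfrsf13c at 4.07, Tnfsf13b at -2.21, Ltb at 1.84, Ltbr at -1.64 and Tnfrsf21 at -1.54. Tnfrsf13c rested on 11 UMIs in dendritic cells. In macrophages against microglia 3 of 19 were higher and 2 lower, beside 14.9% of all genes called, with Cd40 at 4.00, Tnfsf13 at 2.44, Tnf at -2.25, Ltb at 1.91 and Tnfrsf13b at -1.14. In endothelial cells 4 of 14 were higher and 1 lower than in glioma/progenitor cells, beside 23.0% of all genes called, with Fas at 7.14, Tnfsf10 at 5.37, Tnfrsf1b at 3.65, Tnfrsf21 at -2.24 and Tnfrsf19 at 1.65. Fas and Tnfsf10 encode a death receptor and the ligand TRAIL. In oligodendrocytes 1 of 14 was higher and 6 were lower, beside 30.7% of all genes called, with Tnfrsf1a at -5.03, Tnfrsf11b at 0 UMIs against 64 (at least 17-fold lower), Tnfrsf19 at -4.56, Tnfrsf21 at -4.28 and Ltbr at -3.27.

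The signalling list held 14 TRAF and NF-kB genes, which act downstream of these receptors. Between sorts 11 were higher in CD45+ cells and 1 lower (median 1.99), beside 46.1% of all genes called. The largest were Nfkbia (3.71), Rel (3.69), Birc3 (3.27), Traf1 (3.18) and Nfkb2 (2.75). In T cells against microglia Traf1 was higher (4.51) and Rela (-1.25) and Nfkbia (-1.14) were lower of 14 tested, beside 30.8% of all genes called. Against B cells Nfkb1 alone was called (1.50), beside 3.73%. In dendritic cells against macrophages Traf1 (2.95) and Map3k14 (2.32) were higher and 12 of 14 did not pass, beside 8.02% of all genes called. In macrophages against microglia Traf1 was higher (2.56) and Traf5 (-1.18), Nfkbia (-1.12) and Rela (-1.001) were lower, beside 14.9% of all genes called. Traf1, an adaptor of several family receptors, was thus called in all but 1 of the CD45+ class contrasts. Of 11 tested in CD45- cells, Nfkbia (4.22), Birc3 (4.09) and Nfkb1 (1.79) were higher in endothelial than in glioma/progenitor cells, beside 23.0% of all genes called. Rel (-2.24) and Traf3 (-2.07) were lower in oligodendrocytes, beside 30.7%.

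Immediate-early genes, a sign of tissue handling as well as of signals, differed between classes too. Of the 14, 11 were higher in CD45+ cells, beside 46.1% of all genes called, led by Atf3 (3.54), Btg2 (2.84), Junb (2.44), Zfp36 (2.32) and Ier3 (2.29). All 14 were lower in T cells than in microglia (median -2.18), beside 30.8% of all genes called. They were led by Egr1 (-3.08), Ier3 (-2.88), Jun (-2.79), Zfp36 (-2.69) and Atf3 (-2.59). In macrophages 9 were lower than in microglia, beside 14.9%, led by Hspa1b (-2.43), Egr1 (-2.40), Jun (-2.07), Hspa1a (-1.99) and Ier2 (-1.14). Among the genes called, microglia thus had the higher level in both contrasts, while 5 of 14 did not pass against macrophages. Junb was higher in T than in B cells (1.02), beside 3.73% of all genes called. Hspa1b (1.27) and Hspa1a (1.05) were higher in dendritic cells than in macrophages, beside 8.02%. In endothelial cells 8 were higher than in glioma/progenitor cells, beside 23.0% of all genes called, led by Hspa1b (3.57), Atf3 (3.54), Hspa1a (3.51), Dusp1 (3.02) and Btg2 (2.75). In oligodendrocytes 8 were lower, beside 30.7% of all genes called, led by Ier3 (-5.04), Egr1 (-3.45), Ier2 (-3.03), Fosb (-2.95) and Junb (-2.78). Their part in the member values was not tested.

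The 6 T cell subset markers were all higher in the CD45+ sort, beside 46.1% of all genes called. The largest were Ctla4 (227 UMIs against 0, at least 73.7-fold), Cd8a (8.13, with 2 UMIs in CD45- cells), Icos (7.20), Cd4 (4.40) and Il2ra (1.30). The other marker, Foxp3, had 600 UMIs in 561 kept cells. Only 11 of these were CD45+ T cells with a Tnfrsf4 UMI and 18 were CD45+ T cells without. Exons of Foxp3 overlap those of other genes over 2082 bases. Foxp3 was not tested between classes. The 5 tested were all higher in T cells than in microglia, beside 30.8% of all genes called. They had Cd8a at 8.51, Ctla4 at 7.82 (157 UMIs against 2), Cd4 at 7.33, Icos at 5.70 and Il2ra at 3.78. Against B cells Cd4 (3.54), Icos (3.29), Cd8a (3.14) and Il2ra (2.92) were higher in T cells, beside 3.73% of all genes called. Cd8a was itself a marker that named the T cell class, so its differences from microglia and B cells follow from that choice. Other classes carried some of them. Cd8a (3.87) and Il2ra (2.74) were higher in dendritic cells than in macrophages, beside 8.02% of all genes called. Cd4 was higher in macrophages than in microglia (3.23), beside 14.9%. In the Cd8a split Cd4 was lower in cells with Cd8a (-3.32), and Cd8a itself chose the groups.

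Genes with the most similar profile were ranked by Pearson correlation over 17 classes among 16849 genes, as a description, since the classes share libraries. For Tnfrsf4 these were Tbx21 (0.96), Trbc1 (0.94) and Cd247 (0.92), and for Tnfrsf9 Cd2 (0.93), Tbx21 (0.92) and Cd247 (0.91). Cd27 was nearest to Ifng (0.90), Xcl1 (0.88) and Gimap1os (0.86), and Tnfrsf18 to P2ry10 (0.92), Gpr18 and Ctsw (both 0.90). For Tnfsf8 they were Cd5, Cma1 (both 0.90) and Trbc1 (0.88). Tnfsf12 was nearest to Ltbr (0.91), Tnfsf13 and Pnp2 (both 0.88), and Tnfsf9 to Epb41l4aos, Ccdc50 (both 0.91) and Gm26831 (0.84). Tnfrsf14 was nearest to Gm26853 (0.89), Olfr63 (0.87) and Gm20768 (0.85), predicted genes and an olfactory receptor.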

How the data were processed

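Inputs were a table of UMI counts per gene and cell and a text annotation (other) naming the stage, sort and run of each library, as deposited. Per the study's methods, the authors made the counts from inDrop reads with RapMap in bcbio-nextgen against the mouse GRCm38 transcriptome, and the labels give mm10. How the 3 transgene rows of the table were counted is not given in the sources used here. Whether ambient RNA and doublets were removed before deposit is not stated. The members and gene lists were chosen with earlier results of these data known.

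Cells with at least 500 UMIs, 500 genes and at most 20% mitochondrial UMIs were kept (17894). Scrublet called 113 doublets (0.635% of 17786 scored), which were left out, leaving 17781. Depth per stage and sort was 5381839 to 10808099 UMIs. Cells were clustered on 2000 variable genes (40 components, 20 neighbours, resolution 1, scanpy 1.11.5, leidenalg 0.10.2), and 31 of 35 clusters were named from 3 or more markers. Left out of the clustering were 123 genes. They included the members and list genes that were not naming markers, and sex-linked and mitochondrial genes. List genes that were naming markers, such as Cd8a, were not left out. Where no count was seen, 3 counts give the upper limit used.

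Counts were summed per tumor and sort or class (at least 10 cells, or 5 in splits) and tested with edgeR 4.0.16 (quasi-likelihood, TMM, filterByExpr, robust, two-sided, tumor as a block, threshold 0.05 after Benjamini-Hochberg adjustment), with DESeq2 1.42.0 as an alternative. The pairing comes from the shared tumor, and sums of a tumor deviated together (r = 0.38, 0.28 and 0.30 over 18433 genes). All 10 members were named wherever tested. For other lists the 5 largest called changes and the direct partners were named. The contrast of T with NK cells and the split by Foxp3 could not be made, with 0 cells of an NK class and 2 late T cells with Foxp3. Standard errors are the log2 difference over the square root of its F statistic. P-values rest on the residual spread of the fitted sums over 3 tumors of different stage. The class contrasts came from 1 fit per sort, with 24 CD45+ and 30 CD45- sums (14 and 18 residual degrees of freedom). Their error is thus pooled over all classes of the fit, also those outside a contrast, and not over the 3 tumors alone. An allele that all tumors carried and a cluster of microglia are not reported here. Gene positions are from the GRCm38 annotation. R was 4.3.3 and Python 3.11.15.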

Additional observations from a re-analysis of the deposited data

Results flagged for a closer look

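Tnfrsf14 lay in opposite directions between the sorts in different tumors. The log2 ratio of CD45+ over CD45- cells was 0.49 (0.17 to 0.81) in the early tumor and -0.22 (-0.48 to 0.04) in the late tumor, with counting intervals that do not overlap, and the late interval includes 0. Tnfsf9 had a log2 ratio of 2.16 (1.68 to 2.68) in the early tumor, -0.16 (-0.59 to 0.27) in the medium tumor and -0.31 (-0.82 to 0.18) in the late tumor, and the early interval overlaps neither other. The difference between tumors was not tested for either gene, since each stage had 1 tumor sample.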

How the results depend on the processing

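There were 464 alternative values for 43 member comparisons, 22 of them called. Of the values, 428 kept their direction and side of the threshold, 33 no longer passed, 3 newly passed and 0 reversed. Without the medium tumor 22 of the 43 comparisons were unchanged and 8 no longer passed, and the rest had no value. The dendritic cell contrast fell from 817 called genes to 85 when each cell was classed without clusters and to 467 at resolution 2, and the Cd8a split moved from 5 to 16 with every gene tested and to 3 without the replicate block. Leaving out 1 tumor gave 1780 to 2542 called genes for T cells over microglia (3138 with all), 149 to 366 for T over B cells (380), 664 to 1136 for macrophages over microglia (1523), 348 to 655 for dendritic cells over macrophages (817) and 1 to 15 for the Cd8a split (5), where the lone sums are assumed to vary like the others. Without the replicate block the counts were 7868 for the sorts, 2785, 303, 1088 and 624 for the 4 CD45+ contrasts in that order, and 2441 and 3201 for endothelial cells and oligodendrocytes over glioma/progenitor cells. The pairing by tumor ended 4 member calls when dropped, Cd27 (adjusted p = 0.19) and Tnfrsf9 (0.504) in T over B cells and Tnfrsf9 (0.158) and Tnfsf12 (0.0507) in dendritic cells over macrophages, and it changed no other member call. With DESeq2 size factors the macrophage split moved from 963 higher and 560 lower to 889 and 836. Microglial Tnfsf9 medium over early (log2 -0.68) was -1.69 with cells classed without clusters, 0.073 in the Gpr84-led cluster and -1.64 in the H2-Oa-led cluster, and late over early (-2.92) was -4.01 as a mean over cells, -2.22 in the Gpr84-led cluster and -3.24 to -2.48 over the thinning, class, doublet, barcode, run and library settings. In 4 settings Tnfsf9 had 0 UMIs and gave no value. The alternatives of the NK and Foxp3 contrasts were not run. Leaving out cells with shared barcodes, the H2-Oa-led microglial cluster or the Pdgfra-led cluster was chosen after seeing the data. The causes were not tested.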
